A study of Mus musculus with 2 samples.

Results

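The m6A readers and erasers examined here were 8 genes of the mouse retina, Ythdf1, Ythdf2, Ythdf3, Ythdc1, Ythdc2, Hnrnpa2b1, Fto and Alkbh5, chosen by their symbols from the 30905 genes listed in both count matrices, and all 8 were found. Single cells had been profiled from retinas at postnatal day 7. The control library, whose genotype label is Ctrl, pooled 2 retinas of different pups. The Mettl3-CKO library pooled 2 retinas of different pups of the same litter that carried Six3-Cre and floxed alleles of Mettl3, so that the gene is deleted in retinal progenitor cells (RPCs). Six3-Cre acts most completely in the central retina, and cells of the periphery can keep the gene. With 1 library per group, no difference below has a replicate check and no p-value was computed. The 95% intervals given after each value cover counting error only.

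N6-methyladenosine (m6A) is a methyl mark on adenosines of mRNA that is written by a complex with METTL3 as its catalytic subunit. Proteins of the YTH family bind the methylated base directly and pass the transcript to decay, translation, splicing or export, which is why they are called readers, whereas FTO and ALKBH5 are dioxygenases that remove the methyl group and are called erasers. The comparison of control and Mettl3-CKO cells asks whether the genes that read and remove the mark keep their transcript levels when the enzyme that writes it is lost.

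The transcripts of these genes can themselves carry the sequence in which the mark is placed, so the word GGACT, a frequent form of the methylation consensus, was looked up on the sense strand of 1 annotated transcript per gene (GENCODE M21, GRCm38). At least 1 copy was present in 86.7% of 21809 protein-coding genes, with a median of 3 copies. Alkbh5 had 10 copies, 8 of them in its 3′ UTR, and 4.25% of genes had at least as many. Ythdf2 had 5 copies, 3 of them in the 3′ UTR. Ythdc2 and Fto had 3 copies each and Ythdf1 and Ythdf3 had 1 each. Ythdc1 and Hnrnpa2b1 had none. The 25 bases around the copy nearest to the stop codon are shown 5′ to 3′ on the sense strand, with the word in capitals. They are given for the members with a copy except Ythdc2, for which no window was taken. Of those shown, Ythdf1 and Ythdf2 differed between the libraries and Ythdf3, Fto and Alkbh5 differed little.
Ythdf1: agtcccctgtGGACTacggcaccag
Ythdf2: aagaaaattaGGACTttttttctta
Ythdf3: aggcatgactGGACTgaaaattggt
Fto: cgagtcgtccGGACTttaccagtac
Alkbh5: tgccctcttgGGACTctggctaatc
The Ythdf1 window lies in the coding sequence at chr2:180910958-180910982 on the minus strand, with the A of its word 307 bases before the last coding base. The Ythdf2 window lies in the 3′ UTR at chr4:132186832-132186856 on the minus strand, with the A of its word 83 bases after the last coding base. The windows of Ythdf3 at chr3:16204257-16204281 and Fto at chr8:91666292-91666316 are coding and on the plus strand. That of Alkbh5 at chr11:60554423-60554447 is in the 3′ UTR on the plus strand, with the A of its word 23 bases after the last coding base. Only the exact word in 1 transcript per gene was counted, so a member without a copy, such as Ythdc1, may still carry the mark. A match is only a run of letters, and methylation was not measured in these libraries.

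The control matrix gave 3994 complete cells of 5995 listed barcodes with 20955138 nuclear-gene UMIs (unique molecular identifiers, each standing for 1 captured transcript), and the Mettl3-CKO matrix gave 3109 of 6992 with 19957693. Each matrix ended before the number of entries it announces, and cells past that point were not used. Median depth was 4766 and 5441 UMIs per cell, and 5 barcode sequences occurred in both libraries. Mettl3, the targeted gene, was at 39.5 counts per 1000000 UMIs (CPM; 36.9 to 42.3) in control and 33.1 CPM (30.6 to 35.7) in Mettl3-CKO cells, a ratio of 0.837 (0.754 to 0.928), and 3′ counts can include a transcript that has lost an inner exon. By class the Mettl3 ratio ran from 0.688 in cone-like to 1.20 (0.786 to 1.86) in neurogenic progenitor-like cells, with 1.01 (0.680 to 1.495) in bipolar-like cells. The interval of every class included 1, so these counts do not show in which classes the gene was lost. Xist, the RNA of the inactive X chromosome, was at 1.53 CPM in control and 1544 CPM in Mettl3-CKO cells, and Ddx3y of the Y chromosome was at 83.9 and 32.8 CPM, so the pools also differed in sex. Cells were clustered jointly without using the members, and 8 classes with at least 50 cells in each library were named by their markers. These were RPC-like (189 control and 282 Mettl3-CKO cells), neurogenic progenitor-like (133 and 147), Müller-like (582 and 478), rod/bipolar precursor-like (408 and 397), bipolar-like (257 and 165), rod-like (1437 and 893), cone-like (97 and 107) and amacrine-like cells (69 and 66).

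Over all cells, transcripts of Ythdf2, Ythdf1 and Ythdc1 were more abundant in the Mettl3-CKO library, and those of Ythdf3, Ythdc2, Fto, Alkbh5 and Hnrnpa2b1 were within 5% of the control level. Ythdf2 was at 115.9 CPM (111 to 121) in control and 155.7 CPM (150.3 to 161) in Mettl3-CKO cells, a ratio of 1.34 (1.27 to 1.42). Ythdf1 was at 60.7 (57.4 to 64.1) and 74.6 CPM (70.8 to 78.4), a ratio of 1.23 (1.14 to 1.33). Ythdc1 was at 215 (209 to 222) and 263 CPM (256 to 270), a ratio of 1.22 (1.17 to 1.27). In these 3 members the intervals of the libraries did not overlap. Among the 10652 genes with at least 100 UMIs in each library, 16.7% were likewise apart in this direction and 12.3% in the other. Of the members, 1 (Ythdf2) was at least 25% higher, as were 10.3% of those genes, and 0 were at least 20% lower, as were 4.22%. The median ratio of all tested genes was 1.01. A higher ratio than that of Ythdf2 was found in 5.99% of the tested genes, than that of Ythdf1 in 11.7% and than that of Ythdc1 in 12.3%, so the rank of these members among all genes was high but not extreme.

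The other members stood near the median gene. Ythdf3 was at 58.3 CPM in control and 56.8 CPM in Mettl3-CKO cells, a ratio of 0.975 (0.899 to 1.06). Ythdc2, with 442 and 431 UMIs the least counted member, had a ratio of 1.02 (0.895 to 1.17). Fto was at 90.2 and 89.3 CPM, a ratio of 0.989 (0.927 to 1.06). Alkbh5 was at 168 and 161 CPM, a ratio of 0.956 (0.911 to 1.0). The intervals of these 4 members lay between 20% below and 25% above the control level. Hnrnpa2b1, with 20302 and 19841 UMIs, had a ratio of 1.03 (1.01 to 1.05), and of 0.999 when each class was given its control share.

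**Figure D1:**
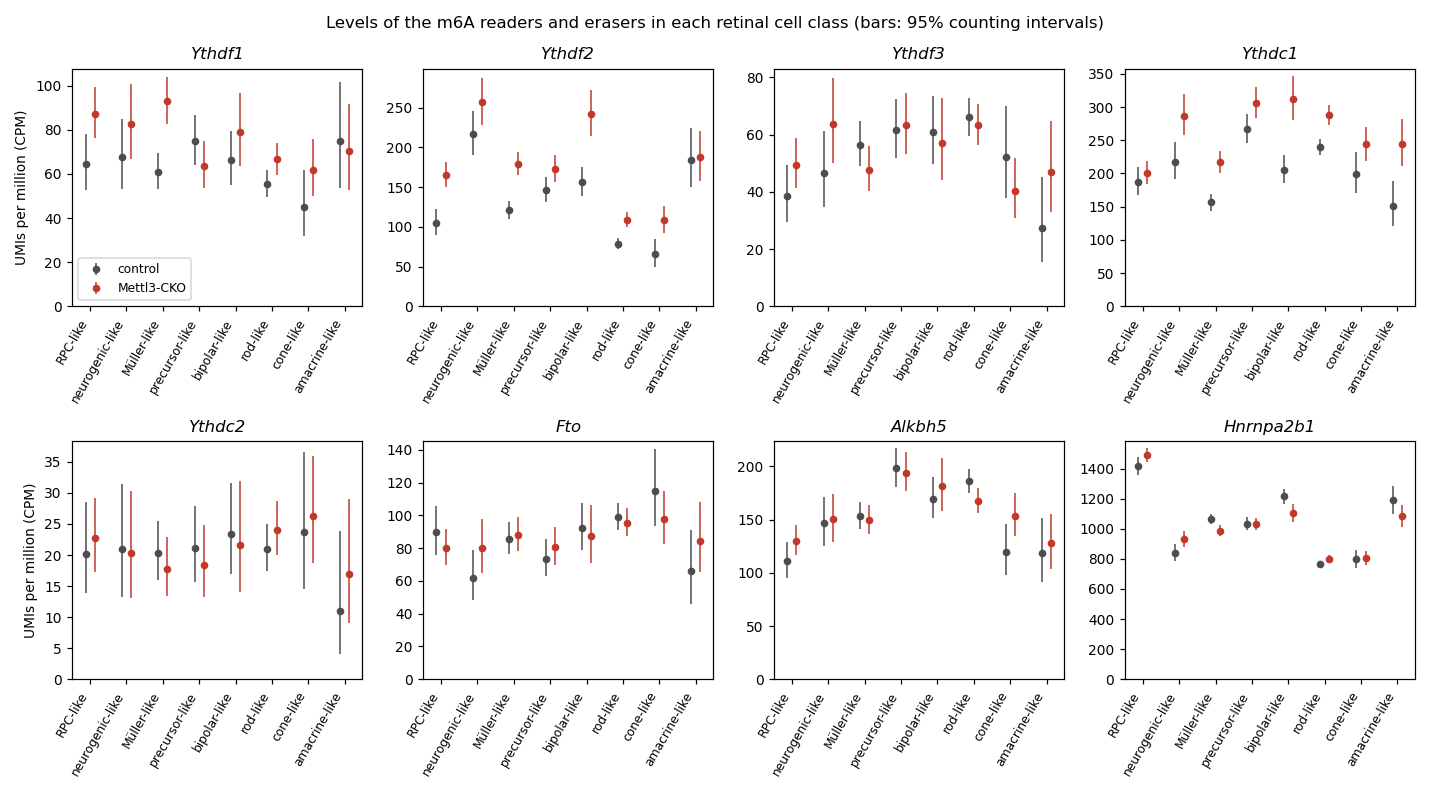
Level of each member in counts per 1000000 UMIs (CPM, y axis from 0) in the 8 cell classes (x axis), with control in grey and Mettl3-CKO in red and bars for the 95% counting interval. Ythdf2 is highest in neurogenic progenitor-like cells and lowest in cone-like cells in both libraries, and Hnrnpa2b1 is highest in RPC-like cells at 1417 and 1493 CPM.

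YTHDF1, YTHDF2 and YTHDF3 are the cytoplasmic readers, close relatives of which YTHDF2 is known for bringing in the deadenylase complex that starts mRNA decay. Ythdf2 (ENSMUSG00000040025, chr4:132184912-132212303, minus strand) varied most between classes of the YTHDF members. It was at 217 CPM (190.3 to 246) in control neurogenic progenitor-like cells, the class named by markers such as Neurog2 and Olig2, and at 65.2 CPM in control cone-like cells, a ratio of 3.33 (2.47 to 4.54). In the Mettl3-CKO library the same classes were at the ends, with 257 and 108 CPM and a ratio of 2.37 (1.95 to 2.88) between them. Here and below, the highest and lowest classes of a library were picked by these same levels. An interval clear of 1 between them follows in part from that choice. Neurogenic progenitor-like cells were 2.07-fold (1.69 to 2.54) above RPC-like cells in control and 1.55-fold (1.34 to 1.80) above them in the Mettl3-CKO library. Rod-like cells were low, at 78.9 and 109 CPM. Of the 7 steps between neighbouring classes in the order of levels, only precursor-like over Müller-like and RPC-like over rod-like had intervals clear of 1 in control, and only bipolar-like over amacrine-like and RPC-like over rod-like in the Mettl3-CKO library.

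Within classes, the Ythdf2 ratio was above 1 in all 8, and its interval excluded 1 in 6 of them. Of all combinations of gene and class with at least 100 UMIs in each library, 14% had an interval above 1. Ythdf2 was at 105 CPM in control and 165 CPM in Mettl3-CKO RPC-like cells, a ratio of 1.57 (1.31 to 1.89). In bipolar-like cells it was at 156 and 242 CPM (1.55, 1.31 to 1.84), in Müller-like cells at 121 and 179 CPM (1.48, 1.30 to 1.68), and in rod-like cells at 78.9 and 109 CPM (1.38, 1.22 to 1.57). Cone-like cells, with 55 and 161 Ythdf2 UMIs, gave 1.66 (1.22 to 2.30) and precursor-like cells 1.18 (1.02 to 1.37). The intervals of neurogenic progenitor-like cells (1.18, 0.995 to 1.41) and amacrine-like cells (1.02, 0.783 to 1.32) included 1. The direction did not hold in these last 2 under every alternative. Neurogenic progenitor-like cells gave 0.985 (0.847 to 1.15) with each library clustered on its own, and 1.21 (1.02 to 1.44) with scaling by the median gene. Amacrine-like cells gave 0.836 (0.603 to 1.16) in the earlier and 1.59 (0.981 to 2.65) in the later part of each file. In precursor-like cells the interval included 1 in 4 of 11 alternatives and in cone-like cells in 2 of 12. The class with the highest control level, neurogenic progenitor-like cells, was thus not among those with the larger ratios.

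Ythdf1 (ENSMUSG00000038848, chr2:180904377-180920949, minus strand), a reader known for aiding translation of marked mRNAs, ranged across control classes from 45.1 CPM in cone-like to 74.9 CPM in amacrine-like cells, a ratio of 1.66 (1.04 to 2.65). These 2 ends rest on 38 and 41 UMIs and were picked by the same levels. Precursor-like cells were 1.35-fold (1.12 to 1.63) above rod-like and 1.23-fold (1.003 to 1.505) above Müller-like cells in control, although no single step between neighbouring classes was clear of 1 in either library. In Müller-like cells it was at 60.8 CPM (53.2 to 69.3) in control and 92.8 CPM (82.5 to 104) in Mettl3-CKO cells, a ratio of 1.53 (1.28 to 1.82). That put Müller-like cells at the top of the Mettl3-CKO order, whereas they were the sixth in the control order. RPC-like cells gave 1.35 (1.07 to 1.73) and rod-like cells 1.20 (1.03 to 1.40), the latter with an interval that included 1 in 5 of 13 alternatives. Precursor-like cells were on the other side, at 74.8 and 63.7 CPM, with 0.852 (0.679 to 1.07).

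Ythdf3 (ENSMUSG00000047213, chr3:16183212-16217037, plus strand), the reader held to act with the other YTHDF proteins, showed no class in which the ratio's interval excluded 1 with all cells counted. Its class ratios ran from 0.774 in cone-like to 1.71 in amacrine-like cells, where only 15 control UMIs were counted. That last value was 3.54 (1.43 to 10.5) with likely doublets left out and 3.31 with the mean of per-cell CPM. In rod-like cells, the best counted class, it was at 66.0 CPM in control and 63.3 CPM in Mettl3-CKO cells, a ratio of 0.959 (0.823 to 1.12). In control, rod-like cells exceeded RPC-like cells, with RPC-like cells at 0.584 of their level (0.438 to 0.767). The order of classes therefore differed from that of Ythdf2, and the level of Ythdf3 in the 16 class and library points had a Pearson r of -0.06 with that of Ythdf2, whereas Ythdf1 and Ythdf2 had 0.79. These points share libraries and depth, and the coefficients are descriptions only.

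YTHDC1 is the nuclear reader, known for its part in splicing and export of marked transcripts. Ythdc1 (ENSMUSG00000035851, chr5:86804221-86836659, plus strand) had an interval above 1 in 7 of 8 classes. Of all combinations of gene and class with at least 100 UMIs in each library, 14% had such an interval. Ythdc1 was at 206 CPM (185 to 228) in control and 313 CPM (281 to 347) in Mettl3-CKO bipolar-like cells, a ratio of 1.52 (1.31 to 1.76). In Müller-like cells it was at 156 and 217 CPM (1.38, 1.24 to 1.55) and in rod-like cells at 240 and 288 CPM (1.20, 1.11 to 1.29). Neurogenic progenitor-like cells gave 1.32 (1.11 to 1.56), cone-like cells 1.22 (1.02 to 1.48), precursor-like cells 1.15 (1.03 to 1.28) and amacrine-like cells, with 83 control UMIs, 1.61 (1.24 to 2.12). The interval included 1 in 4 of 12 alternatives in cone-like and 2 of 11 in precursor-like cells. It also did so in 2 of 13 in rod-like and 1 of 12 in neurogenic progenitor-like cells. RPC-like cells were at 188 and 200.5 CPM, a ratio of 1.07 (0.924 to 1.24) that turned to 0.826 when the mean of per-cell CPM was taken in place of summed UMIs. This was unlike Ythdf2, for which RPC-like cells had one of the larger ratios. In control the level ranged from 152 CPM in amacrine-like and 156 CPM in Müller-like cells to 267 CPM in precursor-like cells, which were 1.71-fold (1.52 to 1.91) above Müller-like cells. A predicted gene on the same strand, Gm43055, overlaps Ythdc1 and is listed in the matrices, so its reads could bear on the count.

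YTHDC2, a YTH protein with a helicase domain known from meiosis, had the lowest counts. Ythdc2 (ENSMUSG00000034653, chromosome 18, plus strand) ranged from 11 CPM in amacrine-like cells (6 UMIs) to 23.7 CPM in cone-like cells (20 UMIs) in control, and the interval of each class ratio included 1. The intervals ran from 0.883 to 1.49 in rod-like cells, the best counted class, to 0.548 to 4.96 in amacrine-like cells, so a difference of the size seen for Ythdf2 was not detectable in the smaller classes.

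HNRNPA2B1, an RNA-binding protein of the nucleus held to read the mark in microRNA precursors and to sort RNAs, was the best counted member. Hnrnpa2b1 (ENSMUSG00000004980, chr6:51460932-51469894, minus strand) was ordered by cell class far more than by library. In control it was at 1417 CPM (1359 to 1476) in RPC-like cells and 766 CPM (744 to 789) in rod-like cells, a ratio of 1.85 (1.76 to 1.95), and in the Mettl3-CKO library at 1493 and 800.4 CPM (1.86, 1.78 to 1.95). Neurogenic progenitor-like cells, at 842 and 931 CPM, were at 0.595 (0.550 to 0.642) and 0.624 (0.583 to 0.667) of RPC-like cells, the opposite of the step seen for Ythdf2. Bipolar-like cells came after RPC-like cells in both libraries, at 1215 and 1104 CPM. The ratios between libraries stayed within 1.11-fold either way and took both directions. They were 1.11 (1.01 to 1.21) in neurogenic progenitor-like, 1.05 (1.0 to 1.11) in RPC-like and 1.04 (1.0 to 1.09) in rod-like cells, but 0.928 (0.885 to 0.973) in Müller-like and 0.909 (0.847 to 0.974) in bipolar-like cells. With scaling by the median gene the bipolar-like value was 0.946 (0.883 to 1.01), and that of rod-like cells was 1.04 (0.994 to 1.08).

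Over all cells the erasers were within 5% of control, and of their class ratios those of Alkbh5 excluded 1 in 2 classes. Fto (ENSMUSG00000055932, chr8:91313525-91668439, plus strand) encodes the demethylase that also acts on the m6Am of the mRNA cap, and the interval of each of its class ratios included 1. It was at 98.9 CPM in control and 95.5 CPM in Mettl3-CKO rod-like cells (0.966, 0.854 to 1.09) and at 85.7 and 88.1 CPM in Müller-like cells (1.03, 0.872 to 1.21). Cone-like cells had the highest level in both libraries (115 and 97.6 CPM) and neurogenic progenitor-like cells the lowest (62.0 and 79.9 CPM). The control ratio between them was 1.86 (1.35 to 2.57), and in the Mettl3-CKO library it was 1.22 (0.937 to 1.60). Fto spans 8 other annotated genes, of which 4831440D22Rik and Gm3235 are listed in the matrices.

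Alkbh5 (ENSMUSG00000042650, chr11:60536381-60558512, plus strand), the nuclear demethylase, was highest in precursor-like cells in both libraries, at 198 and 194 CPM, and in control lowest in RPC-like cells at 111 CPM, a ratio of 1.78 (1.49 to 2.13). RPC-like cells were thus at opposite ends for Alkbh5 and Hnrnpa2b1 in the control. In rod-like cells Alkbh5 was at 186 CPM (175 to 197) in control and 167 CPM (156 to 179) in Mettl3-CKO cells, a ratio of 0.901 (0.822 to 0.987). In cone-like cells it was at 120 and 154 CPM, a ratio of 1.28 (1.01 to 1.64). Both intervals reached 1 under some alternatives, 7 of 13 in rod-like and 3 of 12 in cone-like cells. The other 6 classes had intervals that included 1, from 0.980 in precursor-like and Müller-like cells to 1.17 in RPC-like cells.

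**Figure D2:**
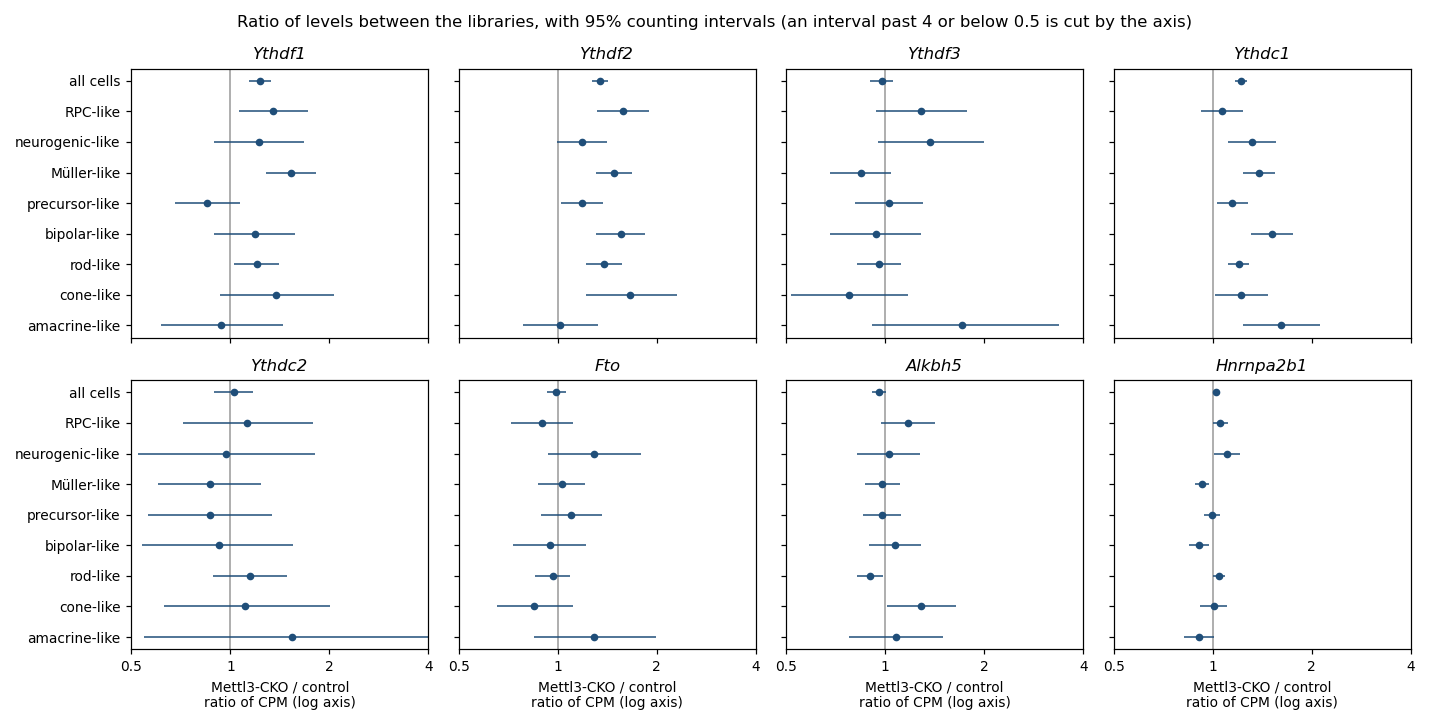
Ratio of the CPM in Mettl3-CKO to that in control cells (x axis, log scale, grey line at 1) for all cells and each class (y axis), with 95% counting intervals as bars. Points of Ythdf2 and Ythdc1 lie to the right of 1 in all 8 classes, those of Fto and Ythdf3 fall on both sides, and those of Hnrnpa2b1 lie between 0.909 and 1.11.

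Over the 64 combinations of member and class, 20 intervals lay above 1 and 3 below. In the 42 combinations with at least 100 UMIs in each library the numbers were 18 and 3, against 14% and 14.8% of the 25756 combinations of any gene and class with as many UMIs. Ythdf2 and Ythdc1 supplied 13 of the 20. Because small classes give few UMIs, members that were at least 25% higher or 20% lower were counted among those with at least 100 UMIs in each library. In Müller-like cells 3 of 7 such members were higher (Ythdf1, Ythdf2, Ythdc1), against 14.1% of all genes tested there, and 0 were lower, against 7.76%. In RPC-like cells 2 of 6 were higher (Ythdf1, Ythdf2), against 6.99%, and 0 lower, against 7.82%. In bipolar-like cells it was 2 of 5 (Ythdf2, Ythdc1), against 14.6%, and 0, against 17.2%. Rod-like cells had 1 of 8 higher (Ythdf2), against 6.91%, and 0 lower, against 2.79%. Neurogenic progenitor-like cells had 1 of 4 higher (Ythdc1), against 5.7%, and 0 lower, against 6.67%. Cone-like cells had 1 of 3 higher (Alkbh5), against 8.23%, and 0 lower, against 11.9%. No member passed in either direction among 7 in precursor-like cells, where 4.9% of genes were higher and 5.18% lower, or among 2 in amacrine-like cells, where 8.64% were higher and 17.1% lower.

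Some classes were not made of the same cells in both libraries, which bears on the ratios above. In rod-like cells, cluster 0 held the largest share of control cells (44.0%) and cluster 1 the largest share of Mettl3-CKO cells (49.7%). A rod-like subcluster of 69 control and 252 Mettl3-CKO cells had a median of 9234 UMIs, above the 4362 and 4690 of the class. Without it the rod-like ratio of Ythdf2 was 1.20 (1.02 to 1.41), that of Ythdf1 1.06 (0.869 to 1.30) and that of Ythdc1 1.08 (0.984 to 1.19), and the intervals of the last 2 included 1. Alkbh5 was at 0.868 (0.773 to 0.974) without that subcluster. Summed markers of red blood cells were at 1931 CPM in control and 2.80 CPM in Mettl3-CKO rod-like cells, and at 26.2 and 1161 CPM in bipolar-like cells, and their part in the ratios was not tested. In bipolar-like cells the summed bipolar markers were at 2569 and 1318 CPM, and a subcluster of 95 control and 10 Mettl3-CKO cells held mostly control cells. Leaving it out gave 1.59 (1.30 to 1.94) for Ythdf2 and 1.48 (1.2502 to 1.75) for Ythdc1, against 1.55 (1.31 to 1.84) and 1.52 (1.31 to 1.76) with it. Cone-like cells had a median of 9057 UMIs in control and 13318 in the Mettl3-CKO library, and summed cone markers of 24524 and 15984 CPM. In amacrine-like cells the summed amacrine markers were at 2481 and 1908 CPM, the rod markers at 1646 and 3789 CPM and the cone markers at 528 and 1288 CPM, and their part in the Ythdc1 ratio of that class was not tested. Müller-like cells had summed Müller markers of 6902 and 5137 CPM and RPC markers of 150 and 271 CPM. Their subcluster with the lowest share of Mettl3-CKO cells (25.6%) held 221 control and 76 Mettl3-CKO cells. The part of these differences in the Müller-like ratios was not tested.

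Because the Mettl3-CKO library holds cells with and without Xist, the members were also read in each kind, among cells of at least 4000 UMIs. Of 2255 such Mettl3-CKO cells, 1444 had a Xist UMI and 811 had none. Over all cells, Ythdf2 gave 1.33 (1.2498 to 1.41) with and 1.30 (1.20 to 1.40) without Xist, Ythdf1 1.21 (1.11 to 1.33) and 1.247 (1.12 to 1.39), and Ythdc1 1.23 (1.18 to 1.29) and 1.21 (1.14 to 1.28). The higher level of these 3 members was therefore present in both kinds of cells. For Fto the ratio was 1.04 (0.966 to 1.12) with and 0.870 (0.785 to 0.963) without Xist, and for Ythdf3 it was 1.02 (0.923 to 1.12) with and 0.845 (0.743 to 0.959) without. Alkbh5 gave 0.991 (0.936 to 1.05) with and 0.923 (0.857 to 0.992) without. The difference between the kinds of cells was not tested. A cell without a Xist UMI may still carry the RNA, and sex and genotype cannot be told apart in the comparison with the control library, where Xist was nearly absent.

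Reclustering each class at a resolution of 0.5 gave 1 subcluster made almost wholly of Mettl3-CKO cells, with 92 of the 478 Mettl3-CKO Müller-like cells and 1 control cell. Ythdc1 was at 265 CPM (231 to 304) in this subcluster, against 201 CPM (183 to 219) in the remaining Mettl3-CKO and 156 CPM (144 to 170) in the control cells of the class. Its ratio to control was 1.70 (1.44 to 1.99) in the subcluster and 1.28 (1.13 to 1.45) in the remaining cells, and that of subcluster to remaining cells was 1.32 (1.12 to 1.56). Ythdf1 was at 105.9, 88.5 and 60.8 CPM and Ythdf2 at 195, 174 and 121 CPM in the same order. Their ratios of subcluster to remaining Mettl3-CKO cells, 1.20 (0.917 to 1.55) and 1.12 (0.926 to 1.35), included 1, so the higher Ythdf1 and Ythdf2 of Müller-like cells was present in both kinds of Mettl3-CKO cells. The remaining cells alone gave 1.46 (1.20 to 1.76) for Ythdf1 and 1.43 (1.252 to 1.64) for Ythdf2 over control.

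Ythdf3 had another order. It was at 70.2 CPM (52.9 to 91.4) in the subcluster, 40.3 CPM (32.6 to 49.2) in the remaining Mettl3-CKO cells and 56.5 CPM (49.2 to 64.7) in control. The remaining cells were thus at 0.712 (0.554 to 0.911) of control, and the subcluster at 1.74 (1.23 to 2.45) of the remaining cells. Hnrnpa2b1 was at 935, 1006 and 1065 CPM, with the subcluster at 0.878 (0.811 to 0.95) of control. Fto was at 70.2, 94.0 and 85.7 CPM and Alkbh5 at 143, 152 and 153 CPM, with intervals over control that included 1. These subcluster values were set against wide differences of the whole transcriptome. Among genes with at least 20 UMIs on each side, 32.5% were at least 25% higher and 18.3% at least 20% lower than in control, and 26.7% and 16.5% than in the remaining Mettl3-CKO cells. The RPC markers summed to 102 CPM in the subcluster, 326 CPM in the remaining cells and 150.1 CPM in control, and the Müller markers to 5974, 4861 and 6902 CPM. Among cells of at least 4000 UMIs, 47 of 85 in the subcluster and 147 of 244 remaining cells had a Xist UMI.

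**Figure D3:**
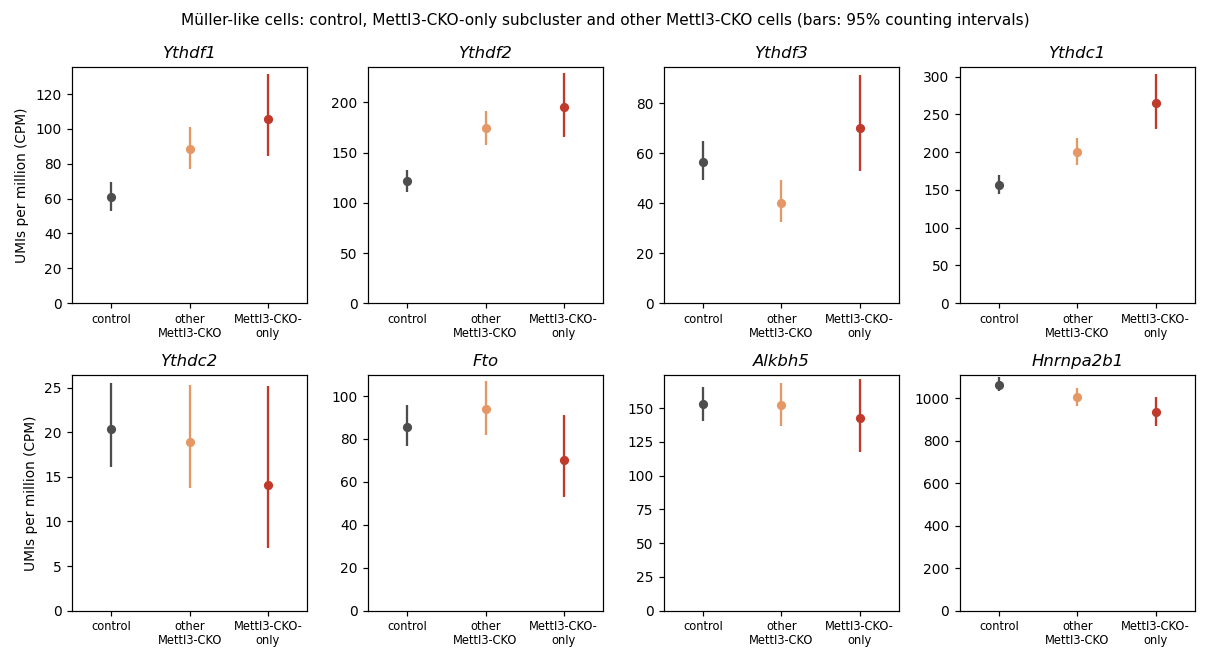
Level of each member in counts per 1000000 UMIs (CPM, y axis from 0) in control Müller-like cells (582 cells), the remaining Mettl3-CKO cells of the class (386 cells, labelled other) and the Mettl3-CKO-only subcluster (92 cells), with 95% counting intervals as bars. Ythdc1 steps up from 156 to 201 and 265 CPM, and Ythdf3 is lowest in those remaining cells at 40.3 CPM.

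Such subclusters were not particular to Müller-like cells. At a resolution of 1, reclustering gave 5 of them, with 93 Mettl3-CKO and 1 control cell in Müller-like, 41 and 2 in bipolar-like, 127 and 5 in rod-like, and 42 and 1 as well as 32 and 1 in precursor-like cells. The ratio of Ythdf2 to the control cells of the class ran from 1.47 to 2.07 over these 5 and that of Ythdc1 from 1.36 to 1.73, with intervals above 1 in 5 of 5 for both, against 20% of the 20408 combinations of gene and subcluster with at least 20 UMIs on each side. The highest Ythdf2 ratio was in the bipolar-like subcluster, at 324 CPM against 156 CPM in control (2.07, 1.64 to 2.61). Alkbh5 was below control in the first precursor-like subcluster, at 120 against 198 CPM (0.605, 0.414 to 0.857), and in the rod-like one, at 144 against 186 CPM (0.777, 0.627 to 0.953), and intervals below 1 made up 14.4% of the same combinations. Hnrnpa2b1 was below control in the Müller-like (0.874, 0.807 to 0.946) and bipolar-like ones (0.844, 0.749 to 0.949). Ythdf1 was above control with its interval in the Müller-like subcluster (1.72, 1.32 to 2.23), and the other 4 gave 1.12 to 1.48 with intervals that included 1. For Ythdf3, Ythdc2 and Fto every interval included 1 in all 5, and Alkbh5 and Hnrnpa2b1 had none above 1. Ythdf2 and Ythdc1 were thus the exception among the members, and the subclusters were picked for holding few control cells.

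The rest of the m6A pathway was read from 5 lists with 50 genes, of which 49 had at least 100 UMIs in each library. Over all cells 5 of the 49 were at least 25% higher and 1 was at least 20% lower, against 10.3% and 4.22% of all genes tested. Among the 13 writers, which include the partners and relatives of METTL3, 2 were higher. Rbm15, which guides the writer complex to its sites, was at 40.9 CPM (38.3 to 43.8) in control and 78.6 CPM (74.8 to 82.6) in Mettl3-CKO cells, a ratio of 1.92, the highest of the lists. Mettl16, which methylates U6 RNA and the Mat2a transcript, had a ratio of 1.26, or 1.244 relative to the median gene, where it no longer reached 25%. Mettl3 at 0.837 and Mettl5 at 0.902 were the lowest writers. The median over the writers was 1.08 against 1.01 over all genes.

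Among the 12 other readers, Igf2bp1, which stabilises marked mRNAs, was at 17.0 and 27.9 CPM, a ratio of 1.64, and Eif3a, a translation initiation factor, had 1.13. Rbmx was at 111 and 88.6 CPM, a ratio of 0.797, and Fxr1 had 0.923. Of the 13 effectors that carry out decay, splicing or export for the YTH readers, 12 were tested, and 0 were at least 25% higher or 20% lower. Nxf1, the mRNA export receptor, had 1.08 and Cnot6 of the CCR4-NOT deadenylase, which YTHDF2 engages, had 1.06, while Cnot7 of the same complex had 0.855 and Rida, the adaptor between YTHDF2 and an endonuclease, 0.884. Meioc, the partner of YTHDC2 in meiosis, had 3 and 2 UMIs and was not tested. Alkbh4 (1.29) and Alkbh2 (1.17) had the highest and Alkbh3 (0.920) and Alkbh1 (0.991) the lowest ratio of the 7 relatives of ALKBH5. Of the 5 relatives of HNRNPA2B1, Hnrnpa0 was at 655 and 839 CPM, a ratio of 1.28, Hnrnpa1 had 1.03, Hnrnpab 1.0 and Hnrnpd 0.939.

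**Figure D4:**
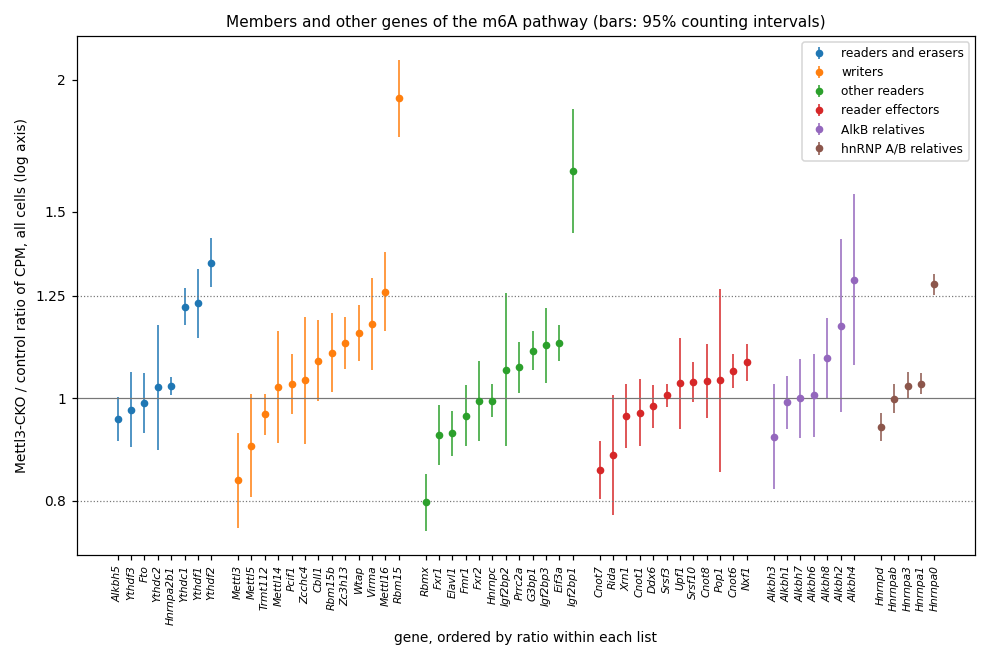
Ratio of the CPM in Mettl3-CKO to that in control cells over all cells (y axis, log scale, dotted lines at 25% above and 20% below the control level) for the 8 members and the 49 tested genes of the m6A pathway, ordered by ratio within each list (x axis), with 95% counting intervals as bars. Rbm15 at 1.92 and Igf2bp1 at 1.64 stand above the members, of which Ythdf2 at 1.34 is the highest.

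The genes most like each member in their levels over the 16 points of class and library were found by Pearson's r among 6070 genes with at least 500 UMIs in each library. Ythdf1 was matched best by Txnl4a (0.91) and Ckap4 (0.87), and Ythdf2 by Psmd7 (0.93) and Traf4 (0.93). Ckap4 and Traf4 belong to the m6A-tagged genes that the study picked for their higher level in mutant RPCs and Müller cells, on these libraries. The closest to Ythdf3 were Cog5 (0.86) and Actr1b (0.85), to Ythdc1 Golga4 (0.92) and Knop1 (0.88), and to Ythdc2 Cdc42bpa (0.89) and Snrnp200 (0.86). Fto was nearest to Fam173a (0.88) and Sh3glb2 (0.86), Alkbh5 to Zmynd11 (0.92) and Ankrd39 (0.92), and Hnrnpa2b1 to Acat2 (0.94) and Phf6 (0.92). The points share libraries and depth, and the coefficients were not tested.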

How the data were processed

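Retinas were digested with papain and captured with the 10x Genomics 3′ V3.1 kit. Reads were trimmed with fastp, aligned to GRCm38 and counted by Cell Ranger 3.1.0, and the deposited values are raw UMI counts per gene and cell made by the authors. Whether counting used the strand is not given in the sources used here. Of the analysed cells, 237 control and 86 Mettl3-CKO cells did not meet the study's filter (over 200 genes, under 20% mitochondrial UMIs) and were kept. Mitochondrial UMIs (13 genes, 5.53% and 4.19%) were left out of totals.

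Each cell's counts were set to a sum of 10000 and put on a log scale, and 2000 variable genes (without members, pathway and sex-linked genes), 10 principal components and 20 neighbours were clustered by Leiden at resolution 1, with subclusters at 0.5 (leidenalg 0.10.2, igraph 0.11.9, scikit-learn 1.9.0, scipy 1.17.1, Python 3.11.15). Clusters were named from 16 marker lists, and a name required 3 or more of its markers to be 1.5-fold up and present in 20% of the cluster. Clusters left unnamed held 743 control and 528 Mettl3-CKO cells. A subcluster counted as Mettl3-CKO-only with at least 30 cells and 95% of them from that library. UMIs were summed per class and library. Levels have exact Poisson and ratios exact conditional binomial intervals at 95%. The ratio intervals were run on simulated Poisson counts, which checks the computation only, since these counts hold no spread between cells, pups or libraries. Scaling by the median gene divides a ratio by the median ratio over genes with at least 100 UMIs in each library. A subcluster other than the Mettl3-CKO-only one is named where its share of Mettl3-CKO cells was the most unequal.

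Named genes were the 8 members, Mettl3, per pathway list the 2 highest and 2 lowest ratios, and per member the 2 genes with the highest r (at least 0.8) of log2(CPM + 1), without ribosomal, mitochondrial and predicted genes. Members, lists and rules were chosen with earlier results of these data known. Gene positions are from GENCODE M21, in which 30766 gene IDs were found.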

Additional observations from a re-analysis of the deposited data

Results flagged for a closer look

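Alkbh5 was higher in Mettl3-CKO than in control cone-like cells (ratio 1.28, 1.01 to 1.64) and lower in rod-like cells (0.901, 0.822 to 0.987), and the ratio of these ratios was 1.42 (1.11 to 1.83). Hnrnpa2b1 was higher in neurogenic progenitor-like cells (1.11, 1.01 to 1.21) and lower in bipolar-like cells (0.909, 0.847 to 0.974), with a ratio of ratios of 1.22 (1.09 to 1.36). Scaled by the median gene of the class, the bipolar-like value was 0.946 (0.883 to 1.01), which includes 1, and both Hnrnpa2b1 values had intervals that included 1 in 4 of 12 alternatives. The Alkbh5 intervals included 1 in 7 of 13 alternatives in rod-like and 3 of 12 in cone-like cells. Median depth in cone-like cells was 9057 UMIs in control and 13318 in the Mettl3-CKO library. Both genes were noticed because 2 classes moved in opposite directions under the same comparison. A ratio of ratios with an interval clear of 1 follows in part from that choice. With 1 library per group the difference between classes was not tested, and the intervals cover counting error only.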

How the results depend on the processing

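Over 12 alternatives, the all-cell ratio ranged from 1.30 to 1.39 for Ythdf2, from 1.20 to 1.247 for Ythdf1 and from 1.18 to 1.26 for Ythdc1. Hnrnpa2b1 reversed to 0.999 in deep cells with Xist, 0.989 in the earlier part of each file and 0.999 with control class proportions, and was 1.06 with the mean of per-cell CPM and 1.06 in the later part. In deep cells without Xist, Ythdf3 was at 0.845 and Fto at 0.870. Of 96 all-cell values, 89 stayed within the interval of the main value, as did 807 of 832 class values. Of the 20 class intervals above 1, 7 stayed above 1 in every alternative with an interval, those of Ythdf1 in Müller-like, Ythdf2 in RPC-, Müller- and bipolar-like, and Ythdc1 in Müller-, bipolar- and amacrine-like cells, and of the 3 below 1 that of Hnrnpa2b1 in Müller-like cells did. Among these values, Ythdc1 in precursor-like cells reversed to 0.987 in deep cells without Xist, and Hnrnpa2b1 in RPC-like cells to 0.980 in deep cells with Xist and 0.997 in the earlier part. The number of class intervals above 1 (20) was 10 in deep cells without Xist and 10 in the earlier part. Both settings hold fewer cells, as does the later part, and the effect of cell number on this count was not tested. The number below 1 (3) was 5 in the earlier part, 1 at resolution 2 and 1 with each library clustered on its own. Members with the same highest class in both libraries (5) numbered 3 with likely doublets left out. Pathway genes at least 20% lower numbered 2, not 1, without a minimum count, since Meioc then counted, and those at least 25% higher 4, not 5, with scaling by the median gene. The cause of the other changes was not tested.

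Scrublet's own threshold marked 3 control and 5 Mettl3-CKO cells, too few to count as working, so the planned use of it was not run and the 5% of cells with the highest score were left out instead. That choice and those leaving out subclusters were made after seeing the data. No paired analysis was possible because each group has 1 library.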
